A study of Mus musculus with 31 samples.

Results

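The 10 genes examined here encode costimulatory ligands of the TNF superfamily (Tnfsf4, Tnfsf9, Tnfsf14 and Cd70), the death ligand TRAIL (Tnfsf10), the death receptors Fas and Tnfrsf10b, and the T cell costimulatory receptors Tnfrsf9, Tnfrsf4 and Tnfrsf18. They were taken by name from the 46072 genes of the deposited tables, and all 10 were found. The list was drawn up with the values of these mice in view, and Tnfsf4 was chosen by its TPM, for its rise in MC-38 tumors at 3 h after irradiation (RT). The values of that comparison are therefore given as a description, with no test. RM-9 is a mouse prostate cancer line and MC-38 a mouse colon cancer line. Each was injected under the skin of the right hind leg of wild-type C57BL/6 mice (C57BL/6J in the methods of the study), and tumors of about 8 mm either received a single dose of 15 Gy or were left untreated. Messenger RNA of whole tumor tissue was sequenced in 31 libraries, 1 per mouse, with 4 mice in each group of control, RT 3 h, RT 12 h and RT 24 h, except 3 in RM-9 RT 24 h. The untreated mice carry the 3 h time label and serve as the only control for all 3 times of their model, so an effect of time without RT cannot be told apart from RT at 12 h and 24 h. Whole tumor tissue mixes tumor, immune and other host cells, and fewer cells of a type and less RNA per cell cannot be told apart.

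TNF superfamily ligands sit as trimers on cell surfaces and bind receptors on neighboring cells. OX40 ligand (Tnfsf4), 4-1BB ligand (Tnfsf9) and CD70 are carried mainly by antigen-presenting cells and deliver survival and growth signals to activated T cells through OX40 (Tnfrsf4), 4-1BB (Tnfrsf9) and CD27, while GITR (Tnfrsf18) is a further receptor of this kind that is high on regulatory T cells. LIGHT (Tnfsf14) binds HVEM and the lymphotoxin β receptor. Fas and the TRAIL receptor DR5 (Tnfrsf10b) carry a death domain that can start caspase-driven apoptosis, and both genes are known targets of p53, the transcription factor activated by DNA damage.

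Some facts of the libraries bear on every value below. Expression is given as TPM, a transcript abundance that is scaled by gene length and adds to the same total in every library. The depth, computed from coverage and FPKM, was 21.4 to 29.4 M reads per library. The mitochondrial gene mt-Nd4l alone accounted for 12.9 to 29.6% of all TPM in MC-38 and for 35.6 to 43.5% in RM-9, while its deposited FPKM was 42.4 times the level implied by its coverage in every library. At the 3 successive times, the median log2 difference of all genes tested was 0.06, -0.19 and -0.04 for RM-9; for MC-38 it was 0.19, 0.33 and 0.22. Median-ratio scaling, which sets the typical gene to no change, brought these medians to between -0.02 and 0.01, and member changes are therefore also given under it. MC-38 control mouse 1 stood apart, with 29.6% mt-Nd4l and a summed 10283 TPM of 6 skeletal muscle markers, against 16.9 to 1679 TPM in the other 3 control mice. The defining markers did not all follow the labels. The epithelial keratin Krt8 was at 463 to 1069 TPM in RM-9 tumors and at most 0.202 TPM in MC-38 tumors. The intestinal factor Cdx2 was at 3.74 to 7.68 TPM in RM-9 tumors and listed at 0 in all MC-38 libraries, and the prostate genes Pbsn and Tmprss2 were listed at 0 in both models. Group names below follow the labels.

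For 6 of the 10 members the RefSeq promoter table held an entry (Tnfsf10, Tnfsf14, Fas, Tnfrsf9, Tnfrsf4 and Tnfrsf18). Those of Fas, Tnfsf10, Tnfsf14 and Tnfrsf4 are shown because a called change of each is described below, up in MC-38 tumors for Fas and Tnfsf10, down in MC-38 tumors for Tnfsf14 and down in RM-9 tumors for Tnfrsf4. Positions are on GRCm38.p6, each sequence is written along the strand of its gene, which is - for Tnfsf14 and + for the others, and capitals mark a match to 1 of 5 motifs searched on both strands: NF-kB, AP-1 (TGANTCA), the interferon response core (GAAA, any 2 bases, GAAA), the GAS element (TTCNNNGAA) and the p53 half-site.
Fas, chr19:34290409-34290658: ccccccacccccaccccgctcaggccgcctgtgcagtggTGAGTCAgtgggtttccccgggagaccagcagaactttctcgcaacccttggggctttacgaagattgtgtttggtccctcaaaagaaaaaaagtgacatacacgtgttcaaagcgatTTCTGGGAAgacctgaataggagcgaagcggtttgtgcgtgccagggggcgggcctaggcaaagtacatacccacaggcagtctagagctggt
Tnfsf10, chr3:27316827-27317027: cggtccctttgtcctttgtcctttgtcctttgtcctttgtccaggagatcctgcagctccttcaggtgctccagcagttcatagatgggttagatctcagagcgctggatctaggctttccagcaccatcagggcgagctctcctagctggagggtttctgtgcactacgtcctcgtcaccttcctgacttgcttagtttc
Tnfsf14, chr17:57194190-57194431: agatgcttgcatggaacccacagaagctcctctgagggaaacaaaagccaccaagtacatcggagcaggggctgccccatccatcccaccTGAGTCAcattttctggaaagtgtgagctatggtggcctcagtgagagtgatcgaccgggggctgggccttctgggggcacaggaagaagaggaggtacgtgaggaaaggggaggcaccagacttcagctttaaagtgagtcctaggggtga
Tnfrsf4, chr4:156013445-156013694: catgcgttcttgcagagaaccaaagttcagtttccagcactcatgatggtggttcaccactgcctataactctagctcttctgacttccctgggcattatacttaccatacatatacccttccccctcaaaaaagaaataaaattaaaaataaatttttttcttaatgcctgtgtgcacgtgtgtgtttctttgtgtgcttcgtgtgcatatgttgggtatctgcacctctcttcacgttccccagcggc
The Fas window held AP-1 at 211 and GAS at 93 bases before the RefSeq start, and the Tnfsf14 window held AP-1 at 160 bases before it; both motifs are palindromic. In the 250 bases before the RefSeq starts of Tnfsf10 and Tnfrsf4, none of the 5 motifs was found. The sequences printed for Tnfsf10 and Tnfsf14 hold only 201 and 242 bases and stop short of the RefSeq start. Over all 32851 promoter windows of 250 bases, AP-1 was present in 6.75%, GAS in 7.02%, NF-kB in 7.25%, the interferon response core in 2.98% and the p53 half-site in 7.13%. A match is a description of the sequence only.

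Tnfsf4, the OX40 ligand gene (ENSMUSG00000026700, chr1:161395409-161418410), was low in untreated tumors and higher after RT in MC-38. In MC-38 control mice it was at 0.365, 0.467, 0.575 and 0.311 TPM. At 3 h after RT it was at 3.27, 1.64, 2.05 and 1.46 TPM, at 12 h at 1.72, 1.27, 1.19 and 1.5 TPM, and at 24 h at 1.49, 1.74, 1.69 and 1.93 TPM. All 12 irradiated mice thus lay above all 4 control mice, with the highest value in mouse 1 at 3 h. The log2 difference at 3 h was 1.45 (SE 0.19), the 26th largest of 15698 genes, and 1.34 under median-ratio scaling. At 12 h it was 1.05 (SE 0.19) and at 24 h 1.26 (SE 0.19), or 0.85 and 1.11 under median-ratio scaling. These comparisons use the same 4 control mice as the one that picked the gene, and Tnfsf4 passed the filter on low values only through its irradiated mice, so they too are a description, with no test. The control values correspond to about 11.9 to 18 reads and the RT 3 h values to 46.5 to 113 reads.

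In RM-9 tumors Tnfsf4 was lower still. It was at 0.354, 0.154, 0 and 0.15 TPM in control mice, at 0.459, 0.416, 0.381 and 0.522 TPM at 3 h, at 0.562, 0.164, 0.613 and 0.188 TPM at 12 h, and at 0.825, 0.42 and 0.627 TPM at 24 h. Every mouse at 3 h and at 24 h exceeded each of the control mice, as held for 9.88% and 2.01% of all genes tested, and 2 of 4 did so at 12 h. The gene was chosen with its values in view, so these are a description, with no test. The highest RM-9 value corresponds to about 51.5 reads. With a mean of 0.389 TPM the gene did not pass the filter in this model and has no limma value there.

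Tnfsf9, which encodes 4-1BB ligand (ENSMUSG00000035678, chr17:57105385-57107757), rose in MC-38 tumors at 12 h. Control mice had 10.8, 15.7, 19.9 and 14.2 TPM, and mice at 12 h had 26.8, 24.9, 23.9 and 28.6 TPM. The groups did not overlap. The log2 difference was 0.79 (SE 0.19, limma adjusted p = 0.0139), or 0.45 under median-ratio scaling (limma adjusted p = 0.0298), and it stayed past the threshold with each mouse left out. At 3 h the values were 21, 14.7, 22.7 and 18.1 TPM, a log2 difference of 0.34 with overlapping groups, or 0.19 without control mouse 1. At 24 h they were 14.3, 22.6, 21.8 and 23.6 TPM (log2 difference 0.44, SE 0.19, limma adjusted p = 0.131). The call there appeared without control mouse 3 (limma adjusted p = 0.0403) or RT mouse 1 (limma adjusted p = 0.0365). In RM-9 tumors Tnfsf9 lay between 2.94 and 6.23 TPM in all 15 mice, with log2 differences of 0.16, 0.17 and 0.44 at 3, 12 and 24 h and limma adjusted p of 0.577, 0.508 and 0.999. The 3 mice at 24 h, at 5.67, 5.45 and 5.13 TPM, all lay above the control mice, at 2.94 to 4.85 TPM (exact permutation p = 0.0571).

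Tnfsf10, which encodes TRAIL, the ligand of DR5 (ENSMUSG00000039304, chr3:27317028-27342427), rose in MC-38 tumors at 24 h. It was at 5.05, 6.11, 7.44 and 7.57 TPM in control mice and at 13.4, 12.2, 11.4 and 11.4 TPM at 24 h, with every irradiated mouse above every control mouse. The log2 difference was 0.85 (SE 0.16, limma adjusted p = 0.00334), or 0.60 under median-ratio scaling (limma adjusted p = 0.0121), and the call held in all 16 fits with a mouse left out. At 3 h the values were 11.5, 7.41, 10.2 and 9.6 TPM (log2 difference 0.53, SE 0.16), and 3 of 4 lay above the control mice. At 12 h the values were 8.56, 6.78, 9.47 and 9.54 TPM, a log2 difference of 0.37 (SE 0.16, limma adjusted p = 0.0771) that was 0.04 under median-ratio scaling and was called without control mouse 3 (limma adjusted p = 0.0469). RM-9 tumors held little of this mRNA, at 0.0916 to 0.768 TPM over all 15 mice, with log2 differences of -0.19, -0.30 and -0.04 at the 3 times (limma adjusted p = 0.63, 0.37 and 0.999). The 14 interferon-stimulated genes of a fixed list moved in MC-38 tumors at the same time. At 24 h 14 of 14 were higher, where 13.2% of all genes were, with a median log2 difference of 1.01 beside 0.22 for all genes. Under median-ratio scaling 13 of 14 were higher, where 7.79% of all genes were. The list was chosen with earlier results of these data known, so these counts are a description and give no support. Ifit3, an interferon-induced antiviral gene, averaged 361 ± 92.7 TPM against 127 ± 27.4 TPM in control mice (SD, n = 4 each), a log2 difference of 1.49 (limma adjusted p = 0.000288). Their part in the Tnfsf10 change was not tested.

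Tnfsf14, which encodes LIGHT (ENSMUSG00000005824, chr17:57189492-57194189), was the member that fell in MC-38 tumors. Control mice were at 0.885, 0.968, 0.856 and 0.884 TPM, a narrow range. At 3 h the values were 0.708, 0.573, 0.654 and 0.4 TPM, at 12 h 0.417, 0.31, 0.758 and 0.287 TPM, and at 24 h 0.497, 0.441, 0.79 and 0.836 TPM. All 12 irradiated mice lay below all 4 control mice. The log2 difference was -0.38 at 3 h, -0.59 at 12 h (SE 0.19, limma adjusted p = 0.0299) and -0.31 at 24 h (SE 0.19, limma adjusted p = 0.272, exact permutation p = 0.0286). Under median-ratio scaling Tnfsf14 fell by 0.80 on the log2 scale at 12 h (limma adjusted p = 0.0129). The call at 12 h was lost in 5 of 16 fits with a mouse left out: without control mouse 1 or 4 (limma adjusted p = 0.0629 and 0.0595) and without RT mouse 1, 2 or 4 (limma adjusted p = 0.0536, 0.0812 and 0.08). A fit of the 2 compared groups alone also lost it. The RT 12 h values correspond to about 8.99 to 23.6 reads. Beside this fall, macrophage markers summed to 814 to 1306 TPM in control mice and 294 to 704 TPM at 12 h, and 8 T cell markers to 23.0 to 32.2 and 12.7 to 23.3 TPM; their part was not tested. In RM-9 tumors Tnfsf14 lay between 0.232 and 0.86 TPM, with log2 differences of -0.38, -0.18 and -0.09 (limma adjusted p = 0.232, 0.511 and 0.999).

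Cd70, which encodes the CD27 ligand (ENSMUSG00000019489, chr17:57145997-57149777), was listed at 0 in 29 of 31 libraries. The other values were 0.137 TPM in MC-38 RT 12 h mouse 3 and 0.177 TPM in MC-38 RT 24 h mouse 1, which correspond to about 1.95 and 2.99 reads. Neither is evidence of a change at this depth, and the gene was not tested. Tnfsf9, Cd70 and Tnfsf14 are neighbors on chromosome 17, with gaps of 38.2 and 39.7 kb between them, and in MC-38 tumors at 12 h the first rose, the last fell and Cd70 was near 0.

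**Figure D1:**
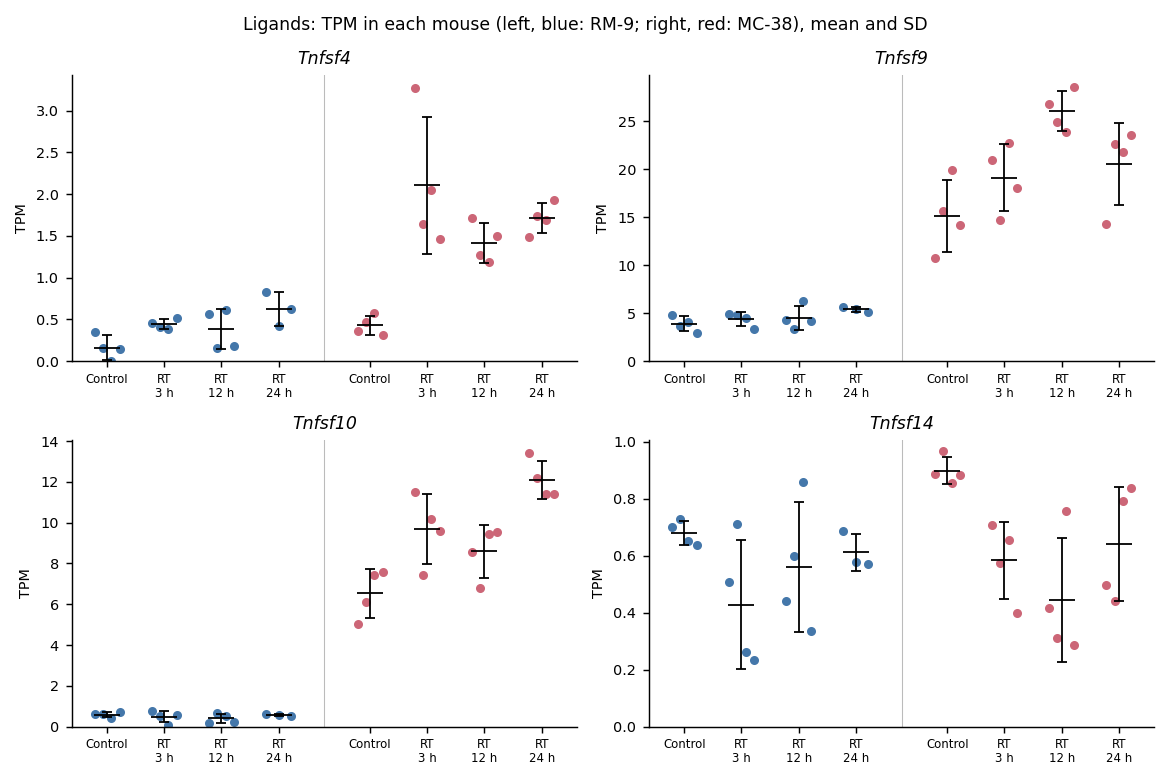
TPM (vertical axes) of 4 ligand genes in each mouse of the 8 groups (horizontal axes), RM-9 in blue on the left and MC-38 in red on the right; bars are the mean and SD. Tnfsf4 is at 1.19 TPM or more in all irradiated MC-38 mice and at 0.825 TPM or less in all other mice, and no RM-9 mouse exceeds 0.768 TPM of Tnfsf10.

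Fas (ENSMUSG00000024778, chr19:34290659-34327770) was higher in MC-38 tumors at 3 h and 24 h than in control mice, but the size of this difference depended on the scaling. Control mice were at 4.8, 2.83, 2.6 and 3.87 TPM. At 3 h the values were 6.29, 6.96, 7.22 and 5.74 TPM, all above the control mice, a log2 difference of 0.84 (SE 0.20) or 0.64 under median-ratio scaling. At 12 h they were 4.65, 4.25, 4.17 and 3.4 TPM and overlapped the control mice (log2 difference 0.22, SE 0.20, limma adjusted p = 0.369), and under median-ratio scaling the difference was -0.09. At 24 h they were 9.07, 5.71, 6.46 and 4.51 TPM, with 3 of 4 above the control mice. The log2 difference at 24 h was 0.78 (SE 0.20, limma adjusted p = 0.0191) and held in 16 of 16 fits with a mouse left out, but under median-ratio scaling it was 0.54 and no longer called (limma adjusted p = 0.206). FPKM, TPM without mitochondrial genes and a fit of the 2 compared groups alone lost the call as well. In RM-9 tumors Fas was at 1.21, 1.46, 0.849 and 1.76 TPM in control mice, at 2.66, 3.5, 1.33 and 3.61 TPM at 3 h, at 1.6, 1.3, 1.78 and 1.45 TPM at 12 h and at 3.17, 2.52 and 2.5 TPM at 24 h. The high values were thus at 3 h and 24 h in both models, with 12 h close to control. The log2 differences in RM-9 were 0.80 (SE 0.22, limma adjusted p = 0.112), 0.18 (SE 0.22, limma adjusted p = 0.607) and 0.85 (SE 0.24, limma adjusted p = 0.803), none of them called with all mice. Without RT 3 h mouse 3 the difference at 3 h was 1.06 (limma adjusted p = 0.0274). At 24 h all 3 mice lay above the control mice (exact permutation p = 0.0286).

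Tnfrsf10b, which encodes DR5, the mouse TRAIL receptor (ENSMUSG00000022074, chr14:69767472-69784403), was among the more abundant members in both models. In MC-38 tumors control mice were at 10.3, 16.3, 19.3 and 17 TPM, with the low value in mouse 1, and mice at 12 h were at 28.2, 22.4, 26.7 and 31 TPM. The groups did not overlap, and the log2 difference was 0.79 (SE 0.23, limma adjusted p = 0.0244). Median-ratio scaling gave 0.45 (limma adjusted p = 0.101), and the TPM fit gave 0.61 without control mouse 1 (limma adjusted p = 0.0822) and 0.73 without RT mouse 4 (limma adjusted p = 0.0683), so the call rests on the TPM scale and on these mice. It was also lost with FPKM and without the filter on low values. At 3 h the values were 22.3, 15.7, 23.8 and 18.0 TPM (log2 difference 0.35, SE 0.23; 0.17 without control mouse 1). At 24 h they were 15.9, 35.4, 22.2 and 31.4 TPM, with a log2 difference of 0.69 (SE 0.23, limma adjusted p = 0.0583) that was called without control mouse 3 (limma adjusted p = 0.0339) or RT mouse 1 (limma adjusted p = 0.0151). In RM-9 tumors it was at 15.7, 13.7, 15.8 and 15.4 TPM in control mice and at 20.7, 22.1, 18.6 and 21.6 TPM at 3 h. All 4 irradiated mice lay above the control mice (log2 difference 0.44, SE 0.10, limma adjusted p = 0.0799, exact permutation p = 0.0286), and under median-ratio scaling Tnfrsf10b rose by 0.37 (limma adjusted p = 0.0329). It was also called without RT 12 h mouse 1, which enters the shared estimate of the spread (limma adjusted p = 0.0405). At 12 h it was at 14.1, 16.5, 19.0 and 16.4 TPM (log2 difference 0.11, limma adjusted p = 0.457). At 24 h it was at 18.7, 17 and 20.5 TPM, all above the control mice (log2 difference 0.29, limma adjusted p = 0.999, exact permutation p = 0.0286).

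Tnfrsf4, the OX40 gene (ENSMUSG00000029075, chr4:156013843-156016612), fell in RM-9 tumors at 3 h and 12 h. Control mice were at 22.6, 20.1, 18.3 and 22.3 TPM. Mice at 3 h were at 15.7, 15.0, 12.5 and 13.4 TPM, mice at 12 h at 13.8, 13.7, 15.4 and 12.9 TPM, and mice at 24 h at 18.6, 20.5 and 20.4 TPM. The 8 values at 3 h and 12 h all lay below the control mice, and the 3 values at 24 h lay within their range. Tnfrsf4 fell by 0.54 on the log2 scale at 3 h (SE 0.10, limma adjusted p = 0.0331) and by 0.56 at 12 h (SE 0.10, limma adjusted p = 0.0246), while the log2 difference at 24 h was -0.07 (limma adjusted p = 0.999). Under median-ratio scaling the change at 3 h was -0.61 (limma adjusted p = 0.00711) and the one at 12 h -0.35 (limma adjusted p = 0.11), so the call at 12 h was lost. Both were also lost in a fit of the 2 compared groups alone, the earlier one also without the filter on low values, and each in some fits with a mouse left out. At 3 h this happened without control mouse 1, 2 or 4 (limma adjusted p = 0.136, 0.105 and 0.0791), without RT 3 h mouse 2, 3 or 4 (limma adjusted p = 0.0789, 0.0631 and 0.111) and without RT 12 h mouse 4 (limma adjusted p = 0.0532). At 12 h it happened without control mouse 1, 2 or 4 (limma adjusted p = 0.0586, 0.0559 and 0.102) and without RT 12 h mouse 1 or 4 (limma adjusted p = 0.0544 and 0.0598). In these fits the log2 difference ranged over -0.60 to -0.49 for the earlier time and over -0.62 to -0.52 for the later one.

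In MC-38 tumors Tnfrsf4 was much lower, at 2.35, 4.58, 2.58 and 3.79 TPM in control mice and at 1.53 to 4.00 TPM after RT. The groups overlapped at each time, and the log2 differences at 3, 12 and 24 h were -0.31, -0.38 and -0.15 (limma adjusted p = 0.289 for 12 h and 0.747 for 24 h).

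Tnfrsf18, which encodes GITR and lies 9.55 kb from Tnfrsf4 (ENSMUSG00000041954, chr4:156026164-156028895), was not called at any time after RT. RM-9 control mice were at 2.67, 1.9, 1.65 and 3.86 TPM, and irradiated mice at 1.34 to 2.36, 0.83 to 2.28 and 1.47 to 2.20 TPM at the 3 times. The largest of these differences was -0.70 on the log2 scale at 12 h (SE 0.26, limma adjusted p = 0.0891). In MC-38 tumors control mice were at 3.36, 4.27, 3.78 and 4.34 TPM, and the log2 differences were 0.11, -0.13 and -0.08 (limma adjusted p = 0.631 at 12 h and 0.826 at 24 h). The antisense gene Gm16008 overlaps Tnfrsf18, and the libraries were stranded, but how strand entered the quantification is not given in the sources used here.

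Tnfrsf9, the 4-1BB gene (ENSMUSG00000028965, chr4:150914562-150946102), has 9 annotated transcripts and overlaps Camta1 on the other strand, and its TPM was the least certain of the members. The deposited FPKM was 6.01 to 9.34 times the level implied by the coverage of the gene, with the factor varying between libraries. By TPM, RM-9 control mice were at 10.8, 9.95, 12.2 and 6.52, and mice at 3 h at 15.9, 14.4, 13.3 and 9.56. This was a log2 difference of 0.42 (SE 0.19, limma adjusted p = 0.202), but 0.07 from the coverage. At 24 h the 3 mice were at 12.2, 16 and 14.2 TPM (log2 difference 0.52, limma adjusted p = 0.999), and 0.31 from the coverage. In MC-38 tumors control mice were at 10.7, 21.7, 27.2 and 24.2 TPM, and irradiated mice spread over 11.9 to 34.6, 22 to 32.7 and 11.8 to 43.1 TPM at the 3 times. The log2 differences were -0.01, 0.44 and 0.40 (limma adjusted p = 0.357 at 12 h and 0.499 at 24 h), each with an SE of 0.39. Without control mouse 1 they were -0.30, 0.16 and 0.12.

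**Figure D2:**
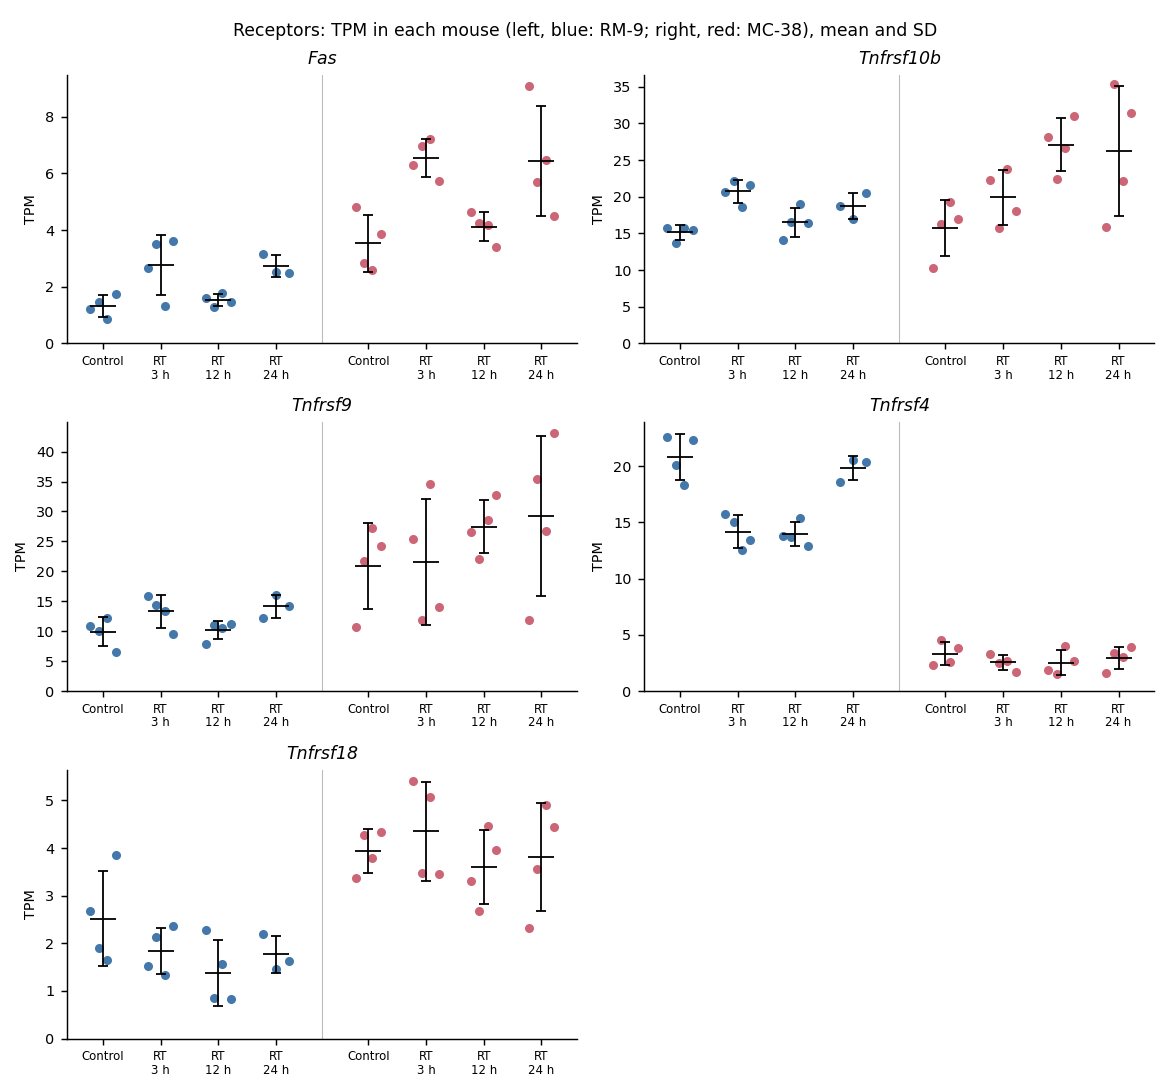
TPM (vertical axes) of 5 receptor genes in each mouse of the 8 groups (horizontal axes), RM-9 in blue on the left and MC-38 in red on the right; bars are the mean and SD. The 8 RM-9 mice at 3 h and 12 h lie between 12.5 and 15.7 TPM of Tnfrsf4, all below the 4 control mice at 18.3 to 22.6 TPM.

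The members' calls were read against those of all genes tested in the same comparison. In RM-9 tumors 8 members were tested. At 3 h, 0 of 8 were higher and 1 lower, where 0.2% of all genes were higher and 0.0285% lower. Under median-ratio scaling 1 was higher and 1 lower, where 1.69% and 1.21% of all genes were. At 12 h, 0 of 8 were higher and 1 lower, where 0.0714% of all genes were higher and 8.3% lower. Under median-ratio scaling 0 were called, where 0.0714% and 0.0428% of all genes were higher and lower. At 24 h, limma called 0 of 8 members and 0% of all genes, and 4 members and 681 genes had an unadjusted p under 0.05; median-ratio scaling and FPKM gave 0 of 8 as well. At that time all 3 irradiated mice lay above every control mouse for 4 of the 8 tested members (Tnfsf9, Fas, Tnfrsf10b and Tnfrsf9), where this held for 2.01% of all genes. The members were chosen with these values in view, so this count is a description and gives no support. From the coverage, Tnfrsf9 overlapped, at 1.95, 2.35 and 1.77 at 24 h against 1.91 in control mouse 3. In MC-38 tumors 9 members were tested. Tnfsf4 is counted here but gives no support, for the reasons above. At 12 h, 3 of 9 were higher (Tnfsf4, Tnfsf9 and Tnfrsf10b), where 28.5% of all genes were higher, and 1 was lower, where 2.59% were lower. At 24 h, 3 of 9 were higher (Tnfsf4, Tnfsf10 and Fas) and 0 lower, where 13.2% of all genes were higher and 0.548% lower. Under median-ratio scaling 2 members were higher and 1 lower at 12 h, beside 6.27% and 9.98% of all genes, and 2 were higher and 0 lower at 24 h, beside 7.79% and 8.2%. The same scaling turned 4469 genes higher and 406 lower at 12 h into 985 and 1566, and 2073 and 86 at 24 h into 1223 and 1288. At 3 h, the comparison that the choice of members used, the groups did not overlap for Tnfsf4 and Fas, which were higher, and Tnfsf14, which was lower; 7.2% and 0.975% of all genes did not overlap in these directions. At the other times, the share of all genes whose irradiated mice all lay above or all below the control mice was 9.88% and 2.87% for RM-9 at 3 h. It was 0.243% and 19.4% at 12 h in that model, and at 24 h it was 2.01% and 2.24%. For MC-38 it was 34.5% and 1.97% at 12 h and 14.8% and 0.898% at 24 h, and 50.9% and 9.08% of genes stood apart in this way between the untreated models.

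**Figure D3:**
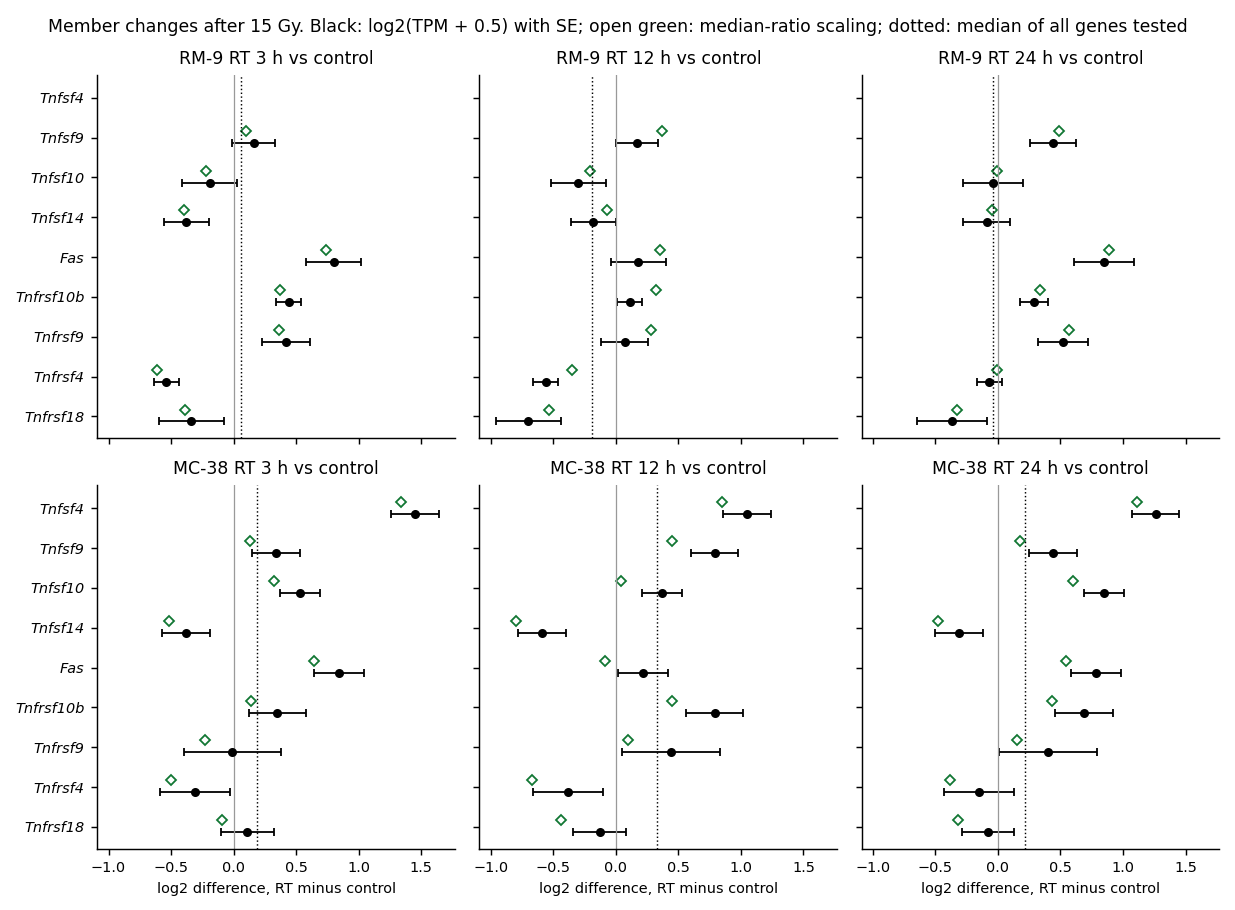
Log2 difference of RT minus control (horizontal axes) for 9 members (vertical axes) in the 6 comparisons; black points are limma values on log2(TPM + 0.5) with their SE, open green diamonds the values under median-ratio scaling, and the dotted line the median of all genes tested. Tnfsf4 stands farthest to the right at all 3 times in MC-38 tumors, and the diamonds lie to the left of the points in MC-38 tumors.

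Whether a member responded differently in the tumor models was tested as the change in MC-38 minus the change in RM-9. At 12 h, Tnfsf10 differed by 0.67 on the log2 scale (SE 0.27, limma adjusted p = 0.0468) and Tnfrsf10b by 0.68 (SE 0.26, limma adjusted p = 0.0383), so 2 of 9 members were called higher and 0 lower, where 44.9% and 0.469% of all genes were. The median of all genes in this contrast was 0.50. Under median-ratio scaling the differences were 0.32 (limma adjusted p = 0.57) and 0.15 (limma adjusted p = 0.736), with 0 of 9 members called, where 1.52% of all genes were higher and 1.5% lower. The call of Tnfsf10 was lost in 19 of 31 fits with a mouse left out and that of Tnfrsf10b in 9 of 31, with the highest limma adjusted p (0.119 and 0.121) without MC-38 control mouse 1. Tnfsf9 differed by 0.62 (SE 0.26, limma adjusted p = 0.0537). It crossed the threshold without some of the mice, the lowest being limma adjusted p = 0.0171 with MC-38 control mouse 3 left out. The value of Tnfsf4, 0.66 (SE 0.28), or 0.18 under median-ratio scaling, is a description. At 24 h, limma called 0 of 9 members, where 1.81% of all genes were higher and 0% lower. Under median-ratio scaling it also called 0 of 9, where 1.24% and 0.273% of all genes were. For 1 member the unadjusted limma p was under 0.05, as for 3402 of all 15358 genes. The largest difference was that of Tnfsf10, 0.90 (SE 0.29, limma adjusted p = 0.0829). This was called without RM-9 RT 3 h mouse 3 or MC-38 control mouse 3 (limma adjusted p = 0.0497 and 0.0427). For Tnfsf4 at 24 h the difference was 0.49 (SE 0.29), or 0.08 under median-ratio scaling.

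The untreated tumors differed in which members were most abundant. In RM-9 control mice (n = 4) the order by mean TPM was Tnfrsf4 with 20.8 ± 2.01 (SD), Tnfrsf10b with 15.2 ± 0.998, Tnfrsf9 with 9.85 ± 2.40, Tnfsf9 with 3.90 ± 0.80, Tnfrsf18 with 2.52 ± 0.99, Fas with 1.32 ± 0.386, Tnfsf14 with 0.679 ± 0.0417, Tnfsf10 with 0.59 ± 0.14 and Tnfsf4 with 0.164 ± 0.145. The neighbors whose mice overlapped in this order were Tnfsf9 and Tnfrsf18, Tnfrsf18 and Fas, and Tnfsf14 and Tnfsf10. In MC-38 control mice (n = 4) it was Tnfrsf9 with 21 ± 7.19, Tnfrsf10b with 15.7 ± 3.84, Tnfsf9 with 15.2 ± 3.77, Tnfsf10 with 6.54 ± 1.20, Tnfrsf18 with 3.94 ± 0.455, Fas with 3.53 ± 1.01, Tnfrsf4 with 3.32 ± 1.05, Tnfsf14 with 0.898 ± 0.0482 and Tnfsf4 with 0.429 ± 0.117. Here the first 3 overlapped each other, as did Tnfrsf18, Fas and Tnfrsf4. From the coverage, Tnfrsf9 was at 1.56 in RM-9 and 2.72 in MC-38 control mice on the TPM scale, which would move it down both orders.

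Between the untreated models, Tnfrsf4 was lower in MC-38 by 2.52 on the log2 scale, as a log2 difference of -2.52 (SE 0.22, limma adjusted p = 7.23e-11). Tnfsf10 was higher by 2.68 (SE 0.19, limma adjusted p = 1.87e-12), Tnfsf9 by 1.82 (SE 0.18, limma adjusted p = 1.54e-09) and Fas by 1.14 (SE 0.22, limma adjusted p = 3.56e-05), and in these 4 genes the mice of both models did not overlap. They kept their directions and calls under median-ratio scaling, with -3.14, 2.21, 1.20 and 0.62. Tnfrsf9 (1.01, limma adjusted p = 0.00662) and Tnfrsf18 (0.60, limma adjusted p = 0.0265) were called higher on TPM but not with FPKM or under median-ratio scaling, where the limma adjusted p was 0.293 and 0.922. For Tnfsf4 the log2 difference was 0.50, or 0.28 under median-ratio scaling; both untreated means lay below the filter, which it passed through irradiated mice, and no test is given. The call of Tnfrsf18 was lost without RM-9 control mouse 2 or 3 (limma adjusted p = 0.0821 and 0.108) or MC-38 control mouse 2 or 4 (limma adjusted p = 0.0581 and 0.0603). Tnfrsf10b differed by 0.02 on the TPM scale (limma adjusted p = 0.934) and turned to -0.63 under median-ratio scaling (limma adjusted p = 0.000463). In all, 6 of 9 members, Tnfsf4 among them, were higher and 1 lower, where 64.7% and 10.7% of all genes were; under median-ratio scaling these were 3 and 2 of 9, beside 34.1% and 31.5%. Tumor model and library set cannot be told apart in these libraries.

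The 3 costimulatory receptors were set against T cell marker mRNA of each library, since OX40, 4-1BB and GITR are known receptors of T cells. Which cells carried these mRNAs in the tumors was not tested. The log2 of each receptor was taken relative to the mean log2 of Cd3d, Cd3e and Cd3g, which encode the CD3 chains of the T cell receptor complex. For Tnfrsf4 this log2 ratio was 3.76 ± 0.12 (SD, n = 4) in RM-9 control mice and -0.28 ± 0.34 (SD, n = 4) in MC-38 control mice. Cd3e itself was at 0.144 to 1.16 TPM in RM-9 and 0.586 to 3.09 TPM in MC-38 libraries, and Foxp3, the defining factor of regulatory T cells, at no more than 0.786 TPM in either model. RM-9 tumors thus held more Tnfrsf4 mRNA beside less CD3 mRNA. The 8 T cell markers summed to 6.24 to 12.1 TPM in RM-9 control mice and to 2.22 to 5.78, 1.79 to 6.24 and 4.11 to 5.69 TPM at 3, 12 and 24 h. Of the 5 T cell markers that passed the filter, 0 were called at 3 h and 3 were lower at 12 h, where 8.3% of all genes were lower. At both times all 5 had an unadjusted limma p under 0.05, as did 3060 and 4344 of all 14013 genes. Their median log2 difference was -0.49 at 3 h and -0.68 at 12 h. Under median-ratio scaling 1 of the 5 was lower at 3 h and 0 at 12 h, where 1.21% and 0.0428% of all genes were. At 24 h 0 of the 5 were called on either scale, with 2 at an unadjusted limma p under 0.05 on TPM, as were 681 of all genes. Macrophage markers summed to 521 ± 97.9 (SD, n = 4), 340 ± 63.3 (n = 4), 298 ± 82.2 (n = 4) and 491 ± 58.9 (n = 3) TPM in control mice and at the 3 times. Of these 7 markers 0 were called at 3 h, where 5 had an unadjusted limma p under 0.05, as did 3060 of all 14013 genes. At 12 h 5 of 7 were lower, where 8.3% of all genes were lower, and 0 were called under median-ratio scaling. Epithelial markers summed to 1317 ± 109, 1058 ± 141, 923 ± 192 and 1246 ± 290 TPM in the same groups. Skeletal muscle markers summed to 1131 ± 776, 215 ± 408, 242 ± 422 and 971 ± 1035 TPM. At 3 h and at 12 h limma called 0 of 6. All 6 had an unadjusted limma p under 0.05 at both times, as did 3060 and 4344 of all 14013 genes. The part of these contents in the fall of Tnfrsf4 was not tested. The ratio of Tnfrsf4 to CD3 was 3.88 at 3 h (exact permutation p = 0.429) and 4.01 at 12 h (exact permutation p = 0.2).

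Of 15 such comparisons with control, 2 had an exact permutation p under 0.05, with no adjustment over the 15. With Cd3e alone as the T cell marker this number was 5, with levels from the coverage 6, with a pseudocount of 0.1 it was 4 and with 1 it was 2. The ratio of Tnfrsf4 in RM-9 tumors at 24 h was 4.24, higher by 0.48 than in control mice with no overlap (exact permutation p = 0.0286). With Cd3e alone, this difference was 0.549 (exact permutation p = 0.0571). The ratio of Tnfrsf18 in MC-38 tumors at 24 h was 0.60, higher by 0.63 than the -0.03 of control mice with no overlap (exact permutation p = 0.0286), but without any 1 of the RT 24 h mice the exact permutation p was 0.0571. In MC-38 tumors, Cd3e alone and the coverage each gave an exact permutation p of 0.0286 for Tnfrsf4 at 24 h and for Tnfrsf9 and Tnfrsf18 at both later times. For Tnfrsf9 the ratio was 1.09, 0.88 and 1.07 higher in RM-9 tumors at the 3 times (exact permutation p = 0.0571, 0.0857 and 0.0571) and 1.22 and 1.11 higher in MC-38 tumors at 12 h and 24 h (exact permutation p = 0.0571 and 0.0857). These differences in Tnfrsf9 carry the uncertainty of its TPM.

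**Figure D4:**
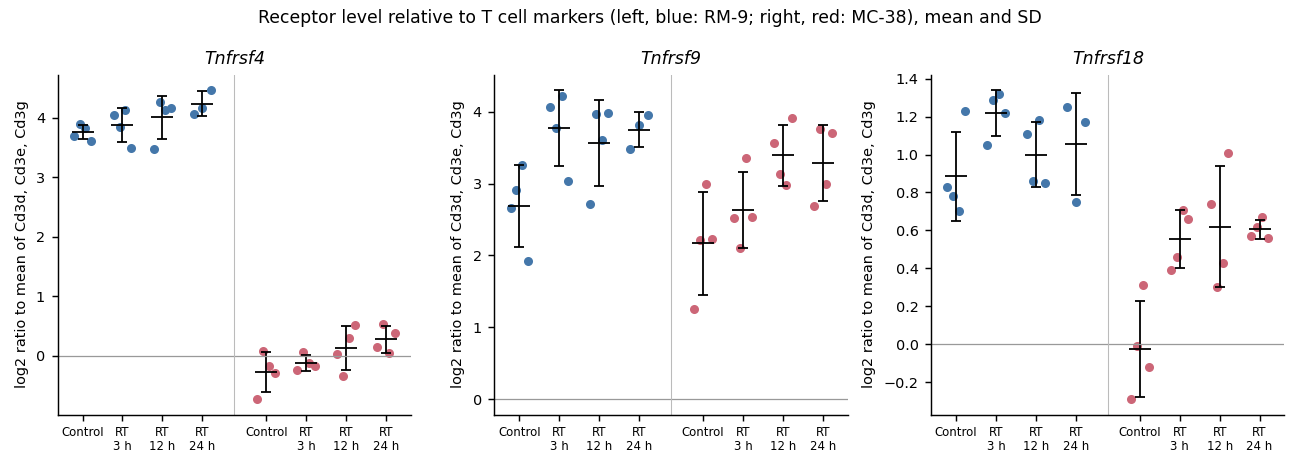
Log2 ratio of 3 receptor genes to the mean of Cd3d, Cd3e and Cd3g (vertical axes) in each mouse of the 8 groups (horizontal axes), RM-9 in blue on the left and MC-38 in red on the right; bars are the mean and SD and the gray line marks a ratio of 0. Every RM-9 mouse is at 3.48 or more and every MC-38 mouse at 0.54 or less for Tnfrsf4.

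For each member, the genes with the most similar pattern were taken as those with the highest Pearson r of log2 values over the libraries of a model, among genes with a mean of at least 1 TPM. All points share the library scaling, and r is a description. The genes are named below for some of the members. In MC-38 tumors (16 libraries), the genes nearest to Tnfsf4 were Dusp14 (r = 0.89), a phosphatase gene, Cdkn1a (r = 0.88), the p53 target that encodes the cell cycle inhibitor p21, and Zswim4 (r = 0.87). In RM-9 libraries the same r was 0.10, 0.75 and 0.12. The genes nearest to Tnfsf10 were the interferon-inducible GTPase genes Gm12250, Gbp3 and Igtp (r = 0.97, 0.94 and 0.93), with r of 0.78, 0.81 and 0.87 in RM-9 libraries. Those nearest to Fas were Ifngr2, Icam1 and Plek2 (r = 0.84, 0.80 and 0.79). For Tnfrsf10b they were Fam102a, Pcdh17 and Clstn3 (r = 0.97, 0.97 and 0.96), with r of 0.70, 0.74 and -0.31 in RM-9 libraries. For Tnfsf9 they were Grhpr, Padi4 and Espn (r = 0.97, 0.96 and 0.96), and for Tnfsf14 Ucp2, Cxcl16 and Gpr65 (r = 0.93, 0.93 and 0.92). Nearest to Tnfrsf18 were Nppb, Icos, a T cell costimulatory receptor gene, and Ptpn22 (r = 0.92, 0.91 and 0.87). In RM-9 libraries their r was -0.77, 0.74 and -0.32. For Tnfrsf4, the nearest genes were Itgal, H2-DMb2 and Ciita in MC-38 (r = 0.88, 0.86 and 0.83) and Rhog, Ercc1 and Fhl3 in RM-9 tumors (15 libraries, r = 0.94, 0.90 and 0.89). Neither Tnfrsf10b nor Fas was called after RT on TPM in RM-9 tumors with all mice. In RM-9 tumors the genes nearest to Tnfrsf10b were Plk2, Susd6 and Arhgap23 (r = 0.96, 0.96 and 0.93), with r of 0.02, 0.47 and 0.82 in MC-38 libraries. Nearest to Fas there were Pigf, Btg2 and Glipr2 (r = 0.86, 0.86 and 0.85), with r of 0.11, 0.59 and 0.45 in MC-38 libraries.

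The remaining genes of the family and its pathways gave the setting of these values. Their lists were chosen with earlier results of these data known, so the counts are a description. Of 13 other ligand genes, 4 passed the filter in RM-9 libraries and 9 did so in those of MC-38. The lymphotoxin gene Ltb fell at 12 h in both, from 2.35 ± 0.372 to 0.983 ± 0.625 TPM (SD, n = 4) in RM-9 tumors (log2 difference -1.03, limma adjusted p = 0.0321, not called under median-ratio scaling) and from 4.87 ± 0.529 to 2.54 ± 0.671 TPM (SD, n = 4) in MC-38 tumors (log2 difference -0.84, limma adjusted p = 0.0144). At 24 h in MC-38 tumors 4 of 9 other ligands were higher and 1 lower, beside 13.2% and 0.548% of all genes, or 3 and 1 under median-ratio scaling. Tnf went from 3.90 ± 1.14 to 7.59 ± 0.942 TPM (SD, n = 4), a log2 difference of 0.91 (limma adjusted p = 0.0052). Of 18 other receptors tested there, 7 were higher and 0 lower, or 4 and 1 under median-ratio scaling. Cd40, the receptor through which helper T cells license antigen-presenting cells, went from 17.5 ± 2.91 to 32.1 ± 2.62 TPM (SD, n = 4), a log2 difference of 0.87 (limma adjusted p = 0.00478). In RM-9 tumors limma called 0 of 15 other receptors at each time. The unadjusted limma p was under 0.05 for 3, 3 and 0 of them, beside 3060, 4344 and 681 of all 14013 genes. Under median-ratio scaling 1 was higher at 3 h, where 1.69% of all genes were.

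Below the receptors, 16 death receptor signalling genes and 14 TRAF and non-canonical NF-kB genes were measured, and all passed the filter in both models. In MC-38 tumors at 12 h, 6 of 16 and 11 of 14 were higher and 0 lower, beside the 28.5% of all genes that were higher, but under median-ratio scaling 0 were higher and 2 lower in the first list and 1 was higher in the second. At 24 h, 4 of 16 and 8 of 14 were higher and 0 lower, beside 13.2% of all genes, or 2 higher and 3 lower and 7 higher and 1 lower under that scaling. Relb, a subunit of the non-canonical pathway, went from 22 ± 3.37 to 35.4 ± 3.15 TPM (SD, n = 4) at 24 h, a log2 difference of 0.68 (limma adjusted p = 0.00212), and Nfkb2, its partner, from 96.3 ± 13.7 to 146 ± 8.20 TPM (SD, n = 4), a log2 difference of 0.61 (limma adjusted p = 0.00233). In RM-9 tumors Fadd, the adaptor of death receptors, fell from 2.80 ± 0.178 to 1.94 ± 0.129 TPM (SD, n = 4) at 12 h (log2 difference -0.44, limma adjusted p = 0.0309). It was the only gene of its 16 called there, where 8.3% of all genes were lower. Under median-ratio scaling 0 of the 16 were called, where 0.0428% of all genes were lower.

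Fas and Tnfrsf10b are themselves on the fixed list of 20 p53 targets. That list too was chosen with earlier results of these data known, so its counts are a description. In RM-9 tumors 6 of 20 were higher at 3 h, 4 at 12 h and 0 at 24 h by limma, with 0 lower. Of all genes, 0.2%, 0.0714% and 0% were higher at these times. The unadjusted limma p was under 0.05 for 15, 7 and 8 of the 20, beside 3060, 4344 and 681 of all 14013 genes. Under median-ratio scaling 10, 2 and 0 were higher, beside 1.69%, 0.0714% and 0% of all genes. Cdkn1a averaged 190 ± 28.3 TPM at 3 h against 97.6 ± 13.5 TPM in control mice (SD, n = 4 each), a log2 difference of 0.96 (limma adjusted p = 0.0106). The counts for MC-38 were 8 of 19 higher at 12 h and 5 at 24 h, with 0 lower, beside 28.5% and 13.2% of all genes. Under median-ratio scaling this became 3 higher and 1 lower at 12 h, beside 6.27% and 9.98% of all genes. At 24 h it became 3 higher and 2 lower, beside 7.79% and 8.2%. Cdkn1a there went from 58.2 ± 6.62 to 97.1 ± 11.4 TPM (SD, n = 4) at 24 h, a log2 difference of 0.73 (limma adjusted p = 0.00143).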

How the data were processed

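Whole tumors of 31 mice were profiled by stranded messenger RNA sequencing. Per the labels, RNA was extracted with RNeasy columns and libraries were made with a TruSeq stranded kit and read at 75 bases. The authors deposited a table per library with TPM, FPKM and coverage for each gene; the aligner and quantifier are not given in the sources used here. The submitters' processing notes name bcl2fastq 2.17 and GRCm39, but the deposited gene positions follow GRCm38: of 45137 gene identifiers shared with that annotation, 91.1% had the same start or end. Deposited TPM were tested as log2(TPM + 0.5) with limma 3.58.1 (lmFit and eBayes with a trend, R 4.3.3), 4 groups of a model per fit, with the Benjamini-Hochberg adjustment at 0.05 over all genes whose TPM averaged 0.5 or more (14013 in RM-9, 15698 in MC-38). Contrasts between models used 1 fit of all 8 groups (15358 genes). The deposited FPKM and the level computed from the deposited coverage signal were alternatives, as were median-ratio scaling, pseudocounts of 0.1 and 1, no filter, 2-group fits and leaving out each mouse. Depth came from the ratio of coverage to FPKM. Single values were compared by two-sided exact permutation tests, where 0.0286 is the smallest p possible. The fits were tested on simulated data. Members and gene lists were chosen with earlier results of these data known. Named genes were all 10 members, the 3 most similar genes of some members and up to 3 called genes with the smallest p per list. No mouse was left out of the results as given. P-values measure the spread between mice of 1 experiment. Read equivalents carry counting error, and no unit deposited is a raw count.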

Additional observations from a re-analysis of the deposited data

Results flagged for a closer look

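Cd70 in MC-38 RT 12 h mouse 3 (0.137 TPM) and in MC-38 RT 24 h mouse 1 (0.177 TPM) stood far from the other mice of its group, which were all listed at 0. The values correspond to about 1.95 and 2.99 reads. In 65 groups examined in this way, chance is expected to single out a value in about 1 of 20. That rate does not apply to these groups, since any value above 0 is singled out where all other mice are at 0.

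The changes of Tnfsf10 and Tnfrsf10b at 12 h differed between the tumor models by 0.67 and 0.68 on the log2 scale (MC-38 minus RM-9, limma adjusted p = 0.0468 and 0.0383). The median of all genes in this contrast was 0.50, and under median-ratio scaling the differences of these genes were 0.32 and 0.15 and no longer called.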

How the results depend on the processing

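The changes of Tnfsf9 at 12 h and Tnfsf10 at 24 h in MC-38 tumors kept their direction and their call under median-ratio scaling, FPKM and every fit with a mouse left out. Median-ratio scaling ended the calls of Tnfrsf10b at 12 h and Fas at 24 h in MC-38 tumors and of Tnfrsf4 at 12 h in RM-9 tumors. That of Tnfrsf4 at 3 h held under it, but was lost with no filter, with 2-group fits and without 7 of 15 mice. Where values moved, the cause was not tested.

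The count of members called in RM-9 tumors at 3 h, 1 as given, was 2 under median-ratio scaling, TPM without mitochondrial genes and FPKM, and 0 with no filter and with 2-group fits. At 12 h it went from 1 to 0 under median-ratio scaling, 2-group fits and FPKM. For the difference between models at 12 h it went from 2 to 1 with a pseudocount of 0.1, to 4 with a pseudocount of 1, and to 0 under median-ratio scaling, TPM without mitochondrial genes, no filter and FPKM; at 24 h it went from 0 to 1 with a pseudocount of 1. With a mouse left out, the counts ranged over 0 to 2 in RM-9 at 3 h, 0 to 1 at 12 h, 2 to 5 in MC-38 at 12 h, 3 to 5 at 24 h, and 0 to 4 and 0 to 1 for the difference between models at 12 h and 24 h. Counts in MC-38 and between models are over members that include Tnfsf4, whose values are a description and give no support.

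The log2 ratio differences to CD3 moved as follows. With a pseudocount of 1, Tnfrsf4 in RM-9 at 3 h was -0.055 and Tnfrsf18 at 12 h -0.002, and with 0.1 Tnfrsf18 was 0.627 in RM-9 at 3 h and 0.749 in MC-38 at 12 h. With Cd3e alone, Tnfrsf4 was 0.549 in RM-9 and 0.796 in MC-38 at 24 h, Tnfrsf9 in MC-38 was 1.214 at 12 h and 1.351 at 24 h, and Tnfrsf18 in MC-38 was 0.64 at 12 h. From the coverage, the MC-38 values were 0.581 for Tnfrsf4 at 24 h, 1.305 and 1.129 for Tnfrsf9 at 12 h and 24 h, and 0.649 for Tnfrsf18 at 12 h. With a mouse left out, Tnfrsf4 ranged over 0.167 to 0.429 in RM-9 at 12 h, 0.359 to 0.56 in RM-9 at 24 h and 0.407 to 0.678 in MC-38 at 24 h. Tnfrsf9 ranged over 0.833 to 1.337 in RM-9 at 3 h and 0.916 to 1.501 in MC-38 at 12 h. Tnfrsf18 ranged over 0.268 to 0.444 in RM-9 at 3 h, and 0.521 to 0.762 and 0.542 to 0.742 in MC-38 at 12 h and 24 h. At the last time in MC-38, Tnfrsf18 had an exact permutation p of 0.0571 without any 1 RT mouse and 0.0286 without any 1 control mouse. In RM-9 at 24 h, leaving out a mouse leaves designs that cannot pass 0.05.

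Signs turned in some differences that were not called on TPM. Under median-ratio scaling and FPKM, Fas in MC-38 at 12 h was -0.094 and -0.028. In the difference between models at 12 h, Fas was -0.442, -0.233 and -0.374 under median-ratio scaling, TPM without mitochondrial genes and FPKM, Tnfrsf4 -0.261, -0.089 and -0.209, and Tnfrsf9 -0.154 under median-ratio scaling and -0.087 with FPKM. Between the untreated models, in the same order of settings, Tnfsf14 was -0.164, -0.019 and -0.032 and Tnfrsf10b -0.635, -0.406 and -0.427. From the coverage, Tnfrsf9 was -0.026 in RM-9 at 12 h and 0.111 in the difference at 24 h, where with a pseudocount of 1 Tnfsf9 was 0.02 and Fas 0.013. With a mouse left out, Tnfsf10 in RM-9 ranged over -0.327 to 0.039 at 3 h and -0.133 to 0.02 at 24 h, Tnfrsf9 in RM-9 at 12 h over -0.106 to 0.181, and in MC-38 at 24 h Tnfrsf4 over -0.282 to 0.068 and Tnfrsf18 over -0.202 to 0.109. In the difference at 12 h, Fas ranged over -0.07 to 0.189 and Tnfrsf4 over -0.031 to 0.351. At 24 h, Tnfsf9 ranged over -0.155 to 0.152, Fas over -0.236 to 0.076, Tnfrsf9 over -0.404 to 0.257 and Tnfrsf4 over -0.217 to 0.133. Untreated Tnfrsf10b ranged over -0.089 to 0.203.

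Mouse numbers are shared between groups but do not pair the mice: of 23 same-numbered pairs, 9 had a correlation of deviations over 0.1, with a range of -0.48 to 0.55. With the replicate block the count of members called was 0 in RM-9 at 3 h and 4, in place of 7, between the untreated models; untreated Tnfrsf10b was -0.177, and Tnfsf9 in the difference at 24 h was 0.072.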
